A study of Homo sapiens with 33 samples.

Results

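The G1 cyclins and their kinases are described here as 9 genes, namely the E cyclins CCNE1 and CCNE2, the D cyclins CCND1, CCND2 and CCND3, the kinases CDK2, CDK4 and CDK6, and the phosphatase CDC25A. They were chosen by name from the 78932 gene identifiers of the files, and all 9 were found. The series, PARTAGE, measured replication timing and RNA side by side in HepG2 cells, an established human line from a liver tumour. Of its 33 samples, 15 were RNA libraries. Cells sorted along the cell cycle gave 6 fractions, G1, S1, S2, S3, S4 and G2, with 2 libraries each (replicates 2 and 3), and bulk cells gave 3 libraries (replicates 1 to 3). The other 18 samples were Repli-seq, an assay of replication timing, and were not analysed here. The labels name no treatment and no genetic change for any group. A stranded total RNA kit for very small inputs was used on sorted cells and a stranded mRNA kit on bulk cells, and nuclear RNA is the labelled molecule of both.

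Progress through G1 is driven by D cyclins, which bind CDK4 or CDK6 and begin the phosphorylation of the retinoblastoma protein RB. RB then releases E2F factors, which turn on the genes of DNA synthesis together with CCNE1, CCNE2 and CDC25A, and cyclin E bound to CDK2 completes the phosphorylation of RB and helps to fire replication origins. CDC25A removes inhibitory phosphates from CDK2 and other cyclin-dependent kinases, and cyclin E is degraded during S phase through the ubiquitin ligase subunit FBXW7.

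Of the members that E2F factors are known to switch on, CCNE1 and CDC25A had a start site in the RefSeq promoter table (GRCh38.p14), and the 250 bases before each start are printed as the place where such motifs are searched for. The windows are chr19:29811741-29811990 on the plus strand for CCNE1 and chr3:48188418-48188667 on the minus strand for CDC25A, both read 5′ to 3′, and capitals mark a match to an E2F motif.
CCNE1: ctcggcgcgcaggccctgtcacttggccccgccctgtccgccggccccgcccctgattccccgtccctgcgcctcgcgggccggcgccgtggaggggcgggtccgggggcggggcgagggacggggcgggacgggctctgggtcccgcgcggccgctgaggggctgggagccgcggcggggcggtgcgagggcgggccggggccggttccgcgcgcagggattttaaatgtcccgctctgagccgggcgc
CDC25A: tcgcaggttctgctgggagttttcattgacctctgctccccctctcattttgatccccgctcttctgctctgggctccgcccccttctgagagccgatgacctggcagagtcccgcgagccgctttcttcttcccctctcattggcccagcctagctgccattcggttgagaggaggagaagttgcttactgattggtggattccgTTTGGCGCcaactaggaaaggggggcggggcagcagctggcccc
The motifs searched were TTTCGCGC, TTTGGCGC, TTTCCCGC and TTTGCCGC on both strands, which can overlap one another, and 979 of 35116 RefSeq windows of this length (2.79%) held at least 1 of them. CDC25A held TTTGGCGC, with its first base 44 bases before the start, and the CCNE1 window held none of these letters. No match was found before the starts of CCND3, CDK4 and CDK6, and CCNE2, CCND1, CCND2 and CDK2 were not searched. A match is only a description of the letters.

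Values are in TPM, for which reads are divided by gene length and scaled to a total of 1000000 in each library. Sorted libraries held 6127579 to 18481652 reads recovered from the steps of the values, with S4 replicate 3 the deepest and the next deepest at 9308675, and bulk libraries held 22340799 to 24423548. Protein-coding genes took 11.2% to 15.5% of the TPM in sorted libraries and 76.7% to 77.6% in bulk libraries. Liver-cell markers were present in the sorted libraries, with 9 of 10 averaging at least 1 TPM and the albumin gene ALB at a median of 2992 TPM, while APOB was at 0.0506 to 0.318 TPM. Markers of endothelium summed to 0.910 to 3.41 TPM and of fibroblasts to 1.39 to 5.26 TPM in sorted libraries. Leukocyte markers summed to 175 to 446 TPM in sorted libraries and 1811 to 1972 TPM in bulk libraries, with LYZ alone at 174 to 441 TPM in sorted libraries and PTPRC, which marks all leukocytes, at 0 to 0.0440 TPM in sorted libraries. Nothing in the labels says that replicates came from separate cultures, so each p-value covers only the spread among the libraries, which may be technical. Each library pools many cells, so fewer cells expressing a gene and less of its RNA per cell cannot be told apart.

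In GRCh38, CCNE1 (ENSG00000105173) covers chr19:29811991-29824312, CCND1 (ENSG00000110092) covers chr11:69641156-69654474 and CDK2 (ENSG00000123374) covers chr12:55966830-55972789, and no other annotated gene overlaps these. CDC25A (ENSG00000164045, chr3:48157146-48188417) overlaps NDUFB1P1, RNU7-128P and SNRPFP4. CDK4 (ENSG00000135446, chr12:57747727-57752310) overlaps TSPAN31 and MIR6759, and CDK6 (ENSG00000105810, chr7:92604921-92836573) overlaps CDK6-AS1, LOC112268009 and RNU6-10P. CCNE2 (ENSG00000175305, chr8:94880224-94896693) overlaps INTS8, NDUFAF6 and LOC100128548. CCND2 (ENSG00000118971, chr12:4273762-4305353) overlaps CCND2-AS1, and CCND3 (ENSG00000112576, chr6:41934933-42050035) overlaps LOC105375059 and RNU6-761P. The sources used here do not say whether reads were counted by strand, so values of these 6 genes are uncertain by whatever reads an overlapping partner gave.

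E cyclin RNA had its lowest values late in S phase in each replicate number, although no difference passed the test. CCNE1 was at 5.34, 5.47, 9.43, 4.18, 2.14 and 3.82 TPM in G1, S1, S2, S3, S4 and G2 of replicate 2. In replicate 3, CCNE1 was at 14.7, 14.4, 12.8, 4.94, 6.74 and 9.12 TPM in the same order. Within each replicate number the S3 and S4 libraries lay below G1, S1 and S2, but the S4 library of replicate 3 lay above the G1 library of replicate 2, so the fractions overlapped across replicates.

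CCNE2, the other E cyclin, was also lowest in S3 or S4, at a lower level. From S1 to S2 it moved in the same direction as CCNE1 within each replicate number, up in replicate 2 and down in replicate 3. It was at 1.34, 2.07, 2.13, 0.887, 0.551 and 0.816 TPM in G1, S1, S2, S3, S4 and G2 of replicate 2. In replicate 3 it was at 5.0, 4.70, 2.53, 1.43, 1.64 and 3.31 TPM. S3 and S4 again lay below G1, S1 and S2 in each replicate number, and again the fractions overlapped across replicates.

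**Figure D1:**
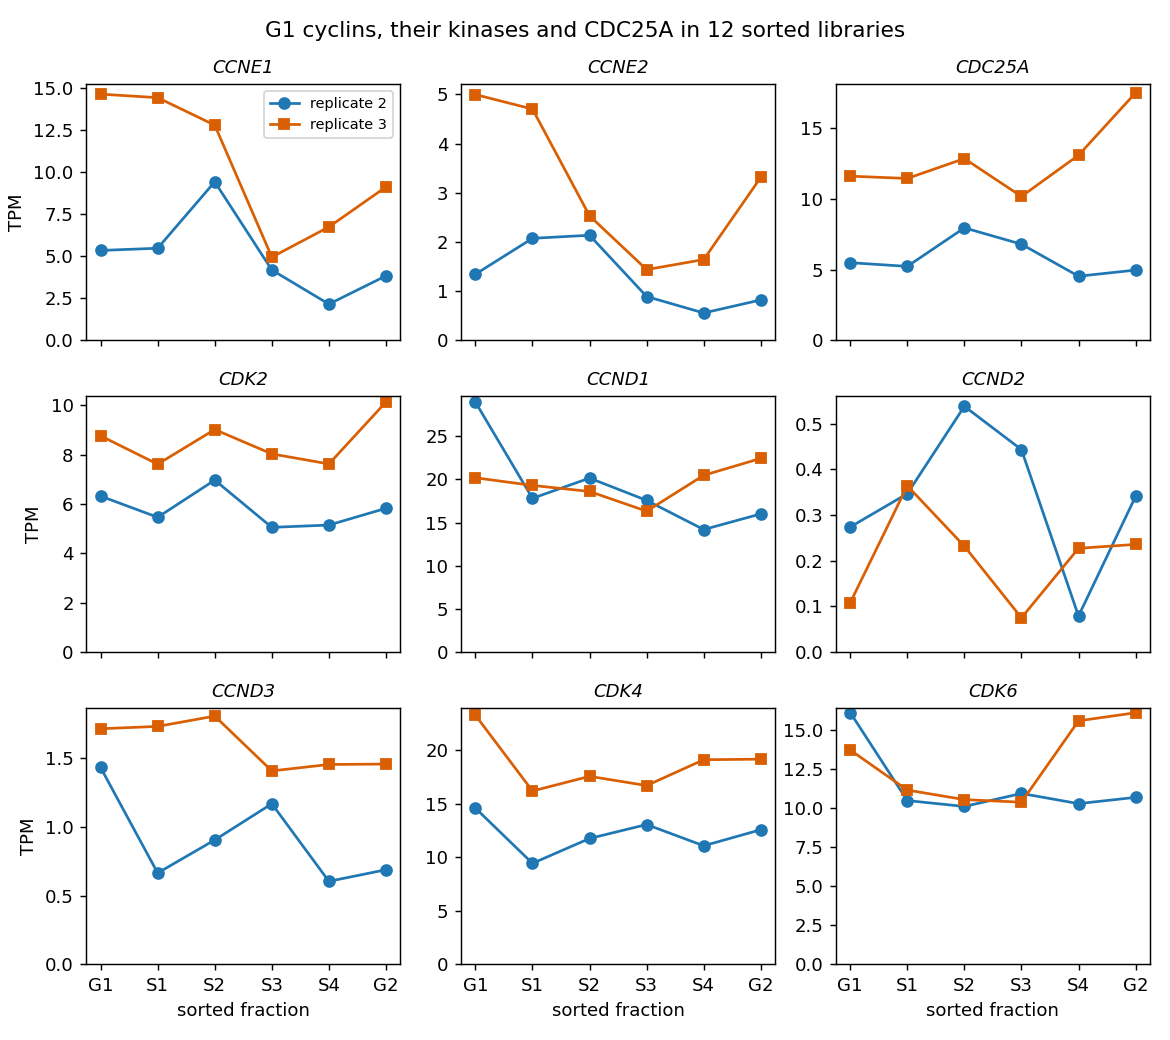
TPM (vertical axis, from 0, with its own scale in each panel) of the 9 genes by fraction from G1 to G2 (horizontal axis), with circles for replicate 2, squares for replicate 3 and 1 point per library. CCNE1 and CCNE2 are lower in S3 and S4 than in G1, S1 and S2 along each line, and CDC25A, CDK2, CDK4 and CCND3 have the replicate 3 line above the replicate 2 line in all 6 fractions.

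The mean of S3 and S4 over the mean of G1, S1 and S2 was 0.468 in replicate 2 and 0.418 in replicate 3 for CCNE1. For CCNE2 the same ratio was 0.389 in replicate 2 and 0.377 in replicate 3. Over all 17022 genes tested the median ratio was 0.923 in replicate 2 and 1.04 in replicate 3, and for the other 7 members it lay between 0.644 (CCND2) and 1.10 (CDK6), both in replicate 3. A gene with both S3 and S4 below all of G1, S1 and S2 within both replicate numbers was rare, at 434 of 17022 genes (2.55%). CCNE1 and CCNE2 were 2 such genes among the 8 members tested. This count was chosen after the values had been seen and carries no test.

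No member passed the test for any difference among the 6 fractions (limma adjusted p = 1 for each of the 8 tested), where 0.0176% of all genes were called. At an unadjusted p under 0.05 there were 0 of the 8 members and 2.76% of all genes. The slope over S1 to S4 was a log2 change of -0.42 ± 0.19 per fraction for CCNE1 (SE; 95% interval -0.85 to 0.014, unadjusted p = 0.0564, limma adjusted p = 1). For CCNE2 the slope was -0.38 ± 0.18 per fraction (SE; 95% interval -0.78 to 0.023, unadjusted p = 0.0620, limma adjusted p = 1). Both slopes missed the threshold, as did every gene in this comparison (0% called, with 2.94% of genes at an unadjusted p under 0.05). The slopes of the other 6 members tested lay between -0.052 (CCND1) and 0.069 (CDK4).

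Later cell-cycle genes had their lowest values in G1 or S1 of the same libraries, again without a call. CCNB1, the mitotic cyclin, was at 10.4, 9.49, 17.8, 48.8, 49.3 and 27.5 TPM in G1, S1, S2, S3, S4 and G2 of replicate 2. In replicate 3, CCNB1 was at 14, 19.9, 32.1, 39.8, 71.9 and 75.1 TPM, and its slope over S1 to S4 was 0.70 ± 0.16 per fraction (SE, limma adjusted p = 0.972). PLK1, a mitotic kinase, had 3.45 times as much TPM in S3 and S4 as in G1, S1 and S2 in replicate 2 and 2.94 times as much in replicate 3. CCNB1 and CCNB2 were among the 213 genes (1.25%) with both S3 and S4 above all of G1, S1 and S2 in both replicate numbers.

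Of the 19 genes tested that E2F switches on around S-phase entry, 6 met the same rule as the E cyclins and the rest did not. Among those that met it, MCM2, MCM4, PCNA, GINS2 and UHRF1 serve the replicative helicase, the polymerase clamp and the upkeep of DNA methylation. They lay lower in S3 and S4 than in G1, S1 and S2 within both replicate numbers. None of the 12 RB and E2F genes tested and none of the 4 CDK inhibitors tested did. Genes of liver-secreted proteins were lower in the same libraries as well, since 6 of 9 hepatocyte markers tested (ALB, AFP, APOA1, FGB, TF and AHSG) met the same rule. The 10 hepatocyte markers summed to 11032, 10543, 11961, 8803, 7908 and 9364 TPM in G1, S1, S2, S3, S4 and G2 of replicate 2, and to 5388, 6100, 5214, 3849, 4289 and 4613 TPM in replicate 3. Their part in the E cyclin values was not tested.

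Between the neighbouring fractions S1 and G1 the E cyclins were close on average with all genes as deposited, with wide intervals. S1 minus G1 was a log2 difference of 0.0052 ± 0.61 for CCNE1 (SE, 95% interval -1.36 to 1.37). For CCNE2 it was 0.16 ± 0.57 (95% interval -1.11 to 1.43). Under other settings that kept all libraries, this difference reached up to 0.37 for CCNE1 and 0.60 for CCNE2, without a call. Across the 8 members tested the S1 minus G1 difference lay between -0.54 (CDK4) and 0.16 (CCNE2), with a median of -0.22 against -0.29 for all genes, and none was called (0.0117% of all genes were). At an unadjusted p under 0.05 there were 0 of 8 members and 3.42% of all genes. With TPM rescaled over protein-coding genes alone, CDK2 was at 0.084 and CDC25A at 0.24, where all genes as deposited gave -0.18 for CDK2 and -0.039 for CDC25A.

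The D cyclins were dominated by CCND1, which binds CDK4 and CDK6. CCND1 was at 28.9, 17.8, 20.1, 17.6, 14.2 and 16.0 TPM in G1, S1, S2, S3, S4 and G2 of replicate 2. In replicate 3 it was at 20.2, 19.3, 18.6, 16.3, 20.5 and 22.4 TPM. As deposited, G1 of replicate 2 stood above the other 11 libraries, which lay between 14.2 and 22.4 TPM without order by fraction. The gap and the order of the fractions depended on the scaling. With TPM rescaled over protein-coding genes, G1 of replicate 2 was still the highest library, at 187, with S1 of replicate 3 next at 173. The fraction means were then 173, 163, 148, 139, 139 and 142 from G1 to G2, again without a call.

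With S as the mean of its 4 fractions, S minus G1 was a log2 difference of -0.41 ± 0.23 for CCND1 (SE, limma adjusted p = 0.816), and G2 minus G1 was -0.34 ± 0.29 (limma adjusted p = 1). CCND3, a D cyclin with the same kinase partners, was at 0.604 to 1.81 TPM over the sorted libraries, with S minus G1 at -0.24 ± 0.33. CCND2, another D cyclin, was at 0.0752 to 0.538 TPM from 4 to 33 reads per sorted library and did not pass the filter on low values, set at a mean of 1 TPM. Its order over the fractions was not readable at that depth, since S2 was its highest library in replicate 2 and S1 in replicate 3.

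None of the 3 kinases was called in any comparison among the fractions. CDK4, a partner of the D cyclins, was at 14.6, 9.43, 11.8, 13.1, 11.1 and 12.6 TPM in G1, S1, S2, S3, S4 and G2 of replicate 2. In replicate 3 it was at 23.3, 16.2, 17.6, 16.7, 19.1 and 19.2 TPM. As deposited, G1 was its highest library in each replicate number and S1 its lowest, yet S minus G1 was -0.37 ± 0.32 and did not pass. This order depended on the scaling. With TPM rescaled over protein-coding genes, G1 of replicate 2 was at 94.1, below G2 at 109. In replicate 3 the lowest library was then G2 at 124, below S1 at 145.

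CDK6, the other D cyclin partner, was at 16.1, 10.5, 10.1, 10.9, 10.3 and 10.7 TPM in replicate 2 and at 13.7, 11.1, 10.5, 10.4, 15.6 and 16.1 TPM in replicate 3, in G1, S1, S2, S3, S4 and G2. S minus G1 was -0.39 ± 0.22 for CDK6. CDK2, the E cyclin partner, stayed between 5.06 and 10.1 TPM in all 12 libraries, with G2 minus G1 at 0.044 ± 0.35. Its late ratio, S3 and S4 over G1, S1 and S2, was 0.816 in replicate 2 and 0.925 in replicate 3, nearer to 1 than the ratio of either E cyclin.

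CDC25A differed more between replicate numbers than between fractions. It was at 5.49, 5.22, 7.95, 6.80, 4.53 and 4.96 TPM in G1, S1, S2, S3, S4 and G2 of replicate 2. In replicate 3 it was at 11.6, 11.5, 12.9, 10.2, 13.1 and 17.5 TPM. All 6 libraries of replicate 3 lay above all 6 of replicate 2, with a mean log2 shift of 1.02 against a median of 0.16 over all genes.

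The same shift of replicate 3 above replicate 2 in all 6 fractions held for CCNE1 (0.92), CCNE2 (0.80), CDK4 (0.59), CDK2 (0.49) and CCND3 (0.46), where 19.8% of all genes showed it. It did not hold for CCND1 (0.06, 3 of 6 fractions), CDK6 (0.16, 4 of 6) and CCND2 (-0.14, 2 of 6). G2 minus G1 for CDC25A was 0.22 ± 0.64, the widest SE of the 8 members tested. Across the 8 tested the median was -0.38 for S minus G1 against -0.20 for all genes, and -0.28 for G2 minus G1 against -0.08, with no member called in either (0% of all genes in the comparison of S and 0.00587% in that of G2). At an unadjusted p under 0.05 there were 0 of 8 members in both, and 5.23% of all genes for S and 2.76% for G2.

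**Figure D2:**
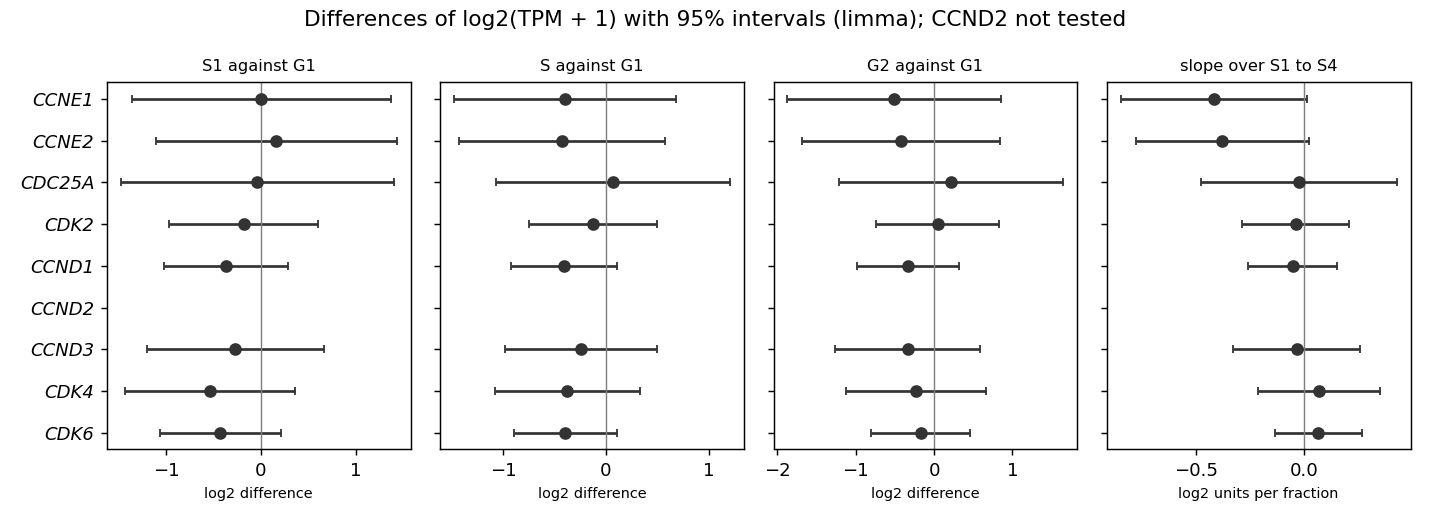
Log2 differences of log2(TPM + 1) (horizontal axis, with 95% intervals from limma) for S1 minus G1, the mean of the 4 S fractions minus G1, G2 minus G1, and the slope per fraction from S1 to S4, with 1 row per gene and no row value for CCND2. Every interval takes in 0, and among the slopes those of CCNE1 and CCNE2 lie farthest from it, at -0.42 and -0.38.

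Per length, CCND1 was the most abundant member in sorted libraries at 19.3 ± 3.78 TPM (SD, n = 12), above CDK4 at 15.4 ± 4.03 TPM in 10 of the 12. CDK6 followed at 12.2 ± 2.45 TPM and CDC25A at 9.31 ± 4.12 TPM, with CDC25A above CCNE1 (7.76 ± 4.29 TPM) in 8 libraries. CCNE1 and CDK2 (7.17 ± 1.65 TPM) did not separate, since CCNE1 was higher in 5 of 12. CCNE2 at 2.20 ± 1.46 TPM was above CCND3 at 1.25 ± 0.437 TPM in 9 of 12, and CCND3 was above CCND2 at 0.272 ± 0.144 TPM in all 12.

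Set against its partner within a library, which no scaling of the library alters, E cyclin TPM over CDK2 TPM was highest early. The ratio of CCNE1 and CCNE2 together to CDK2 was 1.06, 1.38, 1.66, 1.00, 0.523 and 0.796 in G1, S1, S2, S3, S4 and G2 of replicate 2. In replicate 3 it was 2.24, 2.51, 1.70, 0.794, 1.10 and 1.23. S3 and S4 were below G1, S1 and S2 within each replicate number, by a narrow margin in replicate 2, where S3 was at 1.00 and G1 at 1.06.

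The ratio of the 3 D cyclins to CDK4 and CDK6 was 0.999, 0.946, 0.989, 0.800, 0.697 and 0.733 from G1 to G2 of replicate 2. In replicate 3 it was 0.595, 0.783, 0.735, 0.658, 0.639 and 0.684. G1 was the highest of these ratios in replicate 2 and the lowest in replicate 3. CDC25A over CDK2 lay between 0.851 and 1.73 in sorted libraries and between 0.562 and 0.615 in bulk libraries, with no overlap.

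**Figure D3:**
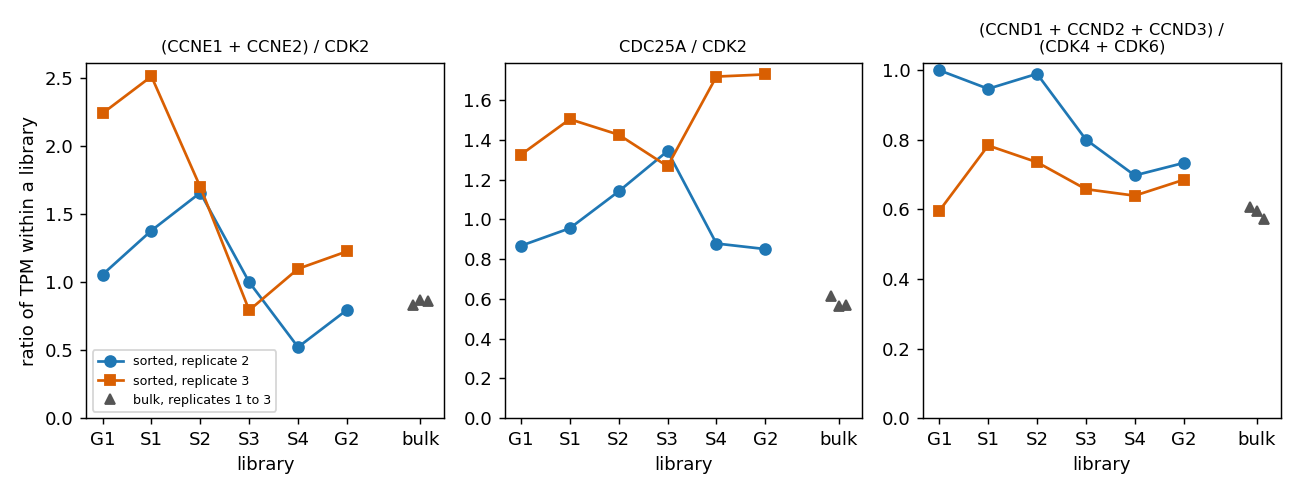
Ratio of TPM within a library (vertical axis, from 0) of the E cyclins to CDK2, of CDC25A to CDK2 and of the D cyclins to CDK4 and CDK6, for each sorted fraction (circles for replicate 2, squares for replicate 3) and for bulk (triangles, 3 libraries). The E cyclin ratio is at 0.523 to 1.10 in S3 and S4 and at 1.06 to 2.51 in G1, S1 and S2, and bulk lies at 0.834 to 0.866.

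Sorted and bulk libraries differed in most members, in a comparison where kit and sorting cannot be told apart. Levels were set side by side within protein-coding genes, and the median of all 13038 genes tested was a log2 difference of 0.79, sorted minus bulk, so that member differences are best read against it. Of the 9 members 6 passed the limma test, 1 higher and 5 lower in sorted libraries, where 71.6% of all genes were called, 55.1% higher and 16.5% lower. The members' count moved with the scaling. It was 7 lower and 0 higher with median-ratio scaling and with recovered reads. With all genes as deposited it was 9 lower and 0 higher, but CCND2 then passed the filter only through bulk libraries. Its means were 4.56 TPM in bulk and 0.272 TPM in sorted libraries. With protein-coding scaling the same 6 members and 74.1% of all genes had an unadjusted p under 0.05. Over all genes 9337 were called with protein-coding scaling (77% of these calls higher) and 9032 with median-ratio scaling (52.1% higher). With recovered reads 9852 were called (51.5% higher), and with all genes as deposited 13896 (28.5% higher). The remaining calls under each scaling were lower. Whether the members' counts differ from those of all genes was not tested. The members' median was -0.61.

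Of the D cyclin axis, CCND1 averaged 151 ± 16.5 TPM of protein-coding genes in sorted libraries and 376 ± 7.85 in bulk libraries (SD, n = 12 and 3), a log2 difference of -1.32 ± 0.09 (SE, limma adjusted p = 1.69e-07). CDK4 averaged 121 ± 30.5 in sorted libraries and 467 ± 15.7 in bulk libraries, a difference of -1.98 ± 0.23 (adjusted p = 1.06e-05). CDK6 differed by -1.09 ± 0.10 (adjusted p = 1.37e-06) and CCND2 by -1.23 ± 0.32 (adjusted p = 0.00475). These 4 genes fell in sorted libraries under each of the 4 scalings tried, and for each the lowest bulk library lay above the highest sorted one with protein-coding scaling. As deposited, CCND2 passed the filter only through its bulk values, so its fall under that scaling was favoured by the filter. The size of the difference depended on the scaling, reaching -3.86 for CCND1, -4.50 for CDK4 and -3.59 for CDK6 with all genes as deposited and -2.44 for CCND2 with recovered reads.

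CDK2 fell by 0.61 on the log2 scale in sorted libraries (adjusted p = 0.0194), with all 12 sorted libraries below the 3 bulk libraries, but the call was lost without bulk replicates 1, 2 and 3 in turn (log2 difference -0.60, -0.60 and -0.62, adjusted p = 0.0637, 0.0615 and 0.0566). With median-ratio scaling CDK2 was at -1.34 (adjusted p = 1.03e-05), with recovered reads at -1.40 and with all genes as deposited at -3.04. CCND3, at -0.40 ± 0.31, and CCNE1, at -0.33 ± 0.39, did not pass with protein-coding scaling. With median-ratio scaling, which brought the median of all genes to 0.12, CCNE1 was at -1.06 (adjusted p = 0.0144) and CCND3 at -1.10 (adjusted p = 0.00224), and both were called.

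CCNE2 was the 1 member called higher in sorted libraries, at 17.4 ± 12.2 TPM of protein-coding genes in sorted libraries and 5.75 ± 0.570 in bulk libraries (log2 difference 1.18 ± 0.44, adjusted p = 0.0312). That call rests on the scaling and the bulk libraries. CCNE2 was at 0.52 with median-ratio scaling (adjusted p = 0.248) and was called lower, at -0.89, with all genes as deposited (adjusted p = 0.0251), and without bulk replicates 1, 2 and 3 in turn its adjusted p was 0.0782, 0.0733 and 0.0996. CDC25A, at 0.44 ± 0.39, was not called with protein-coding scaling. It was at -0.29 with median-ratio scaling, also not called, and was called lower, at -2.02, with all genes as deposited (adjusted p = 0.000337).

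**Figure D4:**
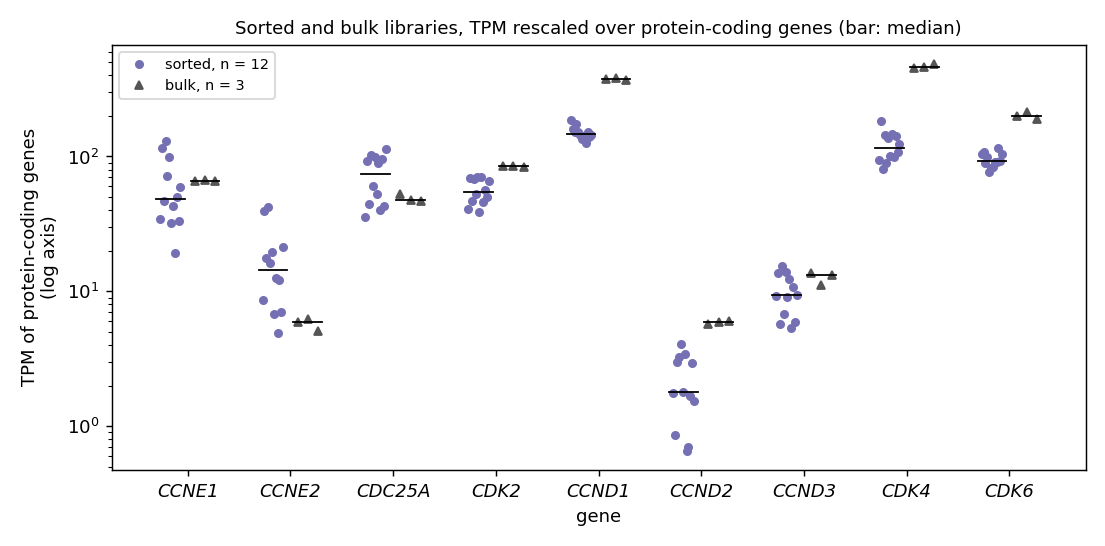
TPM rescaled over protein-coding genes (vertical axis, log scale) of the 9 genes in the 12 sorted libraries (circles) and the 3 bulk libraries (triangles), with bars at the medians. CCND1, CCND2, CDK2, CDK4 and CDK6 have all sorted points below all bulk points, such as at most 187 against at least 368 for CCND1.

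Proportions within a family do not depend on the scaling of a library. CCNE1 made up 72.5% to 83.5% of E cyclin TPM in sorted libraries and 91.5% to 92.8% in bulk libraries, a difference of -13.4 points between means (exact two-sided permutation test over 455 arrangements, p = 0.0022, the smallest they can give, adjusted p = 0.0033 over 3 proportions). CDK4 made up 47.4% to 63.0% of CDK4 and CDK6 together in sorted libraries and 68.3% to 71.7% in bulk libraries, a difference of -14.4 points (exact permutation test, adjusted p = 0.0033). CCND1 made up 90.1% to 95.4% of D cyclin TPM in sorted libraries and 95% to 95.7% in bulk libraries, a difference of -2.60 points (exact permutation test, adjusted p = 0.0198). For CCNE1 and CDK4 no sorted library reached the bulk range, while for CCND1 the ranges overlapped. Libraries of 1 fraction or replicate number are not independent, and with the sorted libraries of replicate 2 alone CCND1 differed by -1.42 points (exact permutation test, adjusted p = 0.119). The CCND1 call was also lost without bulk replicate 2 (-2.39 points, exact permutation test, adjusted p = 0.110).

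**Figure D5:**
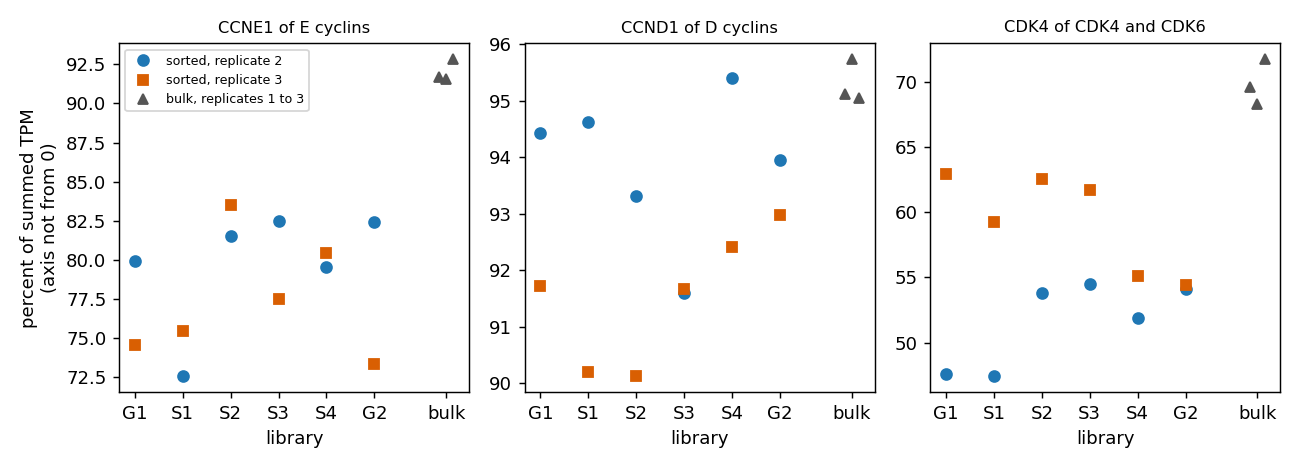
Percent of summed TPM (vertical axis, not from 0) that CCNE1 takes of the E cyclins, CCND1 of the D cyclins and CDK4 of CDK4 and CDK6, in each sorted fraction (circles for replicate 2, squares for replicate 3) and in bulk (triangles). Bulk points lie above all sorted points for CCNE1 and CDK4, with 91.5% against at most 83.5% for CCNE1.

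In bulk libraries the order of levels per length was CDK4 at 360 ± 12 TPM (SD, n = 3), CCND1 at 290 ± 5.61, CDK6 at 155 ± 8.35, CDK2 at 65.1 ± 1.13, CCNE1 at 51.1 ± 0.409, CDC25A at 37.9 ± 2.52 and CCND3 at 9.74 ± 1.06. CCND2 at 4.56 ± 0.115 TPM and CCNE2 at 4.44 ± 0.433 TPM closed the order and did not separate, with CCND2 higher in 1 of 3 libraries. The pairs CCND1 and CDK4, CDC25A and CDK2, CDC25A and CCNE1, and CCNE2 and CCND3 stood in the opposite order in the means of sorted libraries. So did CCNE1 and CDK2, which did not separate in sorted libraries, and CCNE2 and CCND2, which did not separate in bulk libraries.

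Other genes of the pathway were counted in 6 lists, and no gene of any list was called in any comparison among the fractions. CDK inhibitors were tested for 4 of 7, and CDKN1A, the p53 target p21, was at 0.50 ± 0.79 for S minus G1. RB and E2F genes had 12 of 13 tested, with a median S minus G1 of -0.22, and E2F1 was at -0.45 ± 0.35. The 19 E2F targets had a median of -0.31, with MCM3 of the replicative helicase at -0.27 ± 0.47 and the polymerase clamp PCNA at -0.27 ± 0.60. The 4 later cyclins and CDK1 had a median of 1.24, with CCNB1 at 1.28 ± 0.41 and CDK1 at 1.60 ± 0.70. The 7 CDK-activating and phosphatase genes had a median of 0.13, with 4 above 0 and 3 below. Of these the phosphatase CDC25C was the highest, at 1.73 ± 0.34. The 10 genes of cyclin turnover had a median of -0.32, with FBXO31, an F-box protein known to target cyclin D1, at -0.53 ± 0.31.

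Between sorted and bulk libraries most calls in these lists were higher, as were most calls over all genes. Over all genes 55.1% were called higher and 16.5% lower, and the lists are not shown to differ from that. Turnover genes had 7 of 10 higher and none lower, with SKP1 of the SCF ligase at 2.57 ± 0.13 and FBXW7, the cyclin E adaptor, at 1.94 ± 0.23. CDK-activating and phosphatase genes had 6 of 7 higher and CDC25B lower, with PKMYT1, an inhibitory kinase of CDK1, at 2.45 ± 0.39. RB and E2F genes had 6 of 12 higher and E2F5 lower at -1.30 ± 0.22, with the RB relative RBL1 at 1.80 ± 0.30. E2F targets had 7 of 19 higher and 2 lower, with the helicase loader CDC6 at 2.10 ± 0.43 and PCNA at -1.35 ± 0.43. CDK inhibitors had 2 of 6 higher, CDKN2B and CDKN2D, both of the family that binds CDK4 and CDK6. Of the later cyclins and CDK1, CCNB2 was lower at -0.68 ± 0.22 and none of the 4 was higher. All of these depend on the same scaling as the members' values.

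Over the 12 sorted libraries, centred on each replicate number, CCNE1 and CCNE2 had a correlation of 0.887 and CCND1 and CDK6 of 0.783, while CCNE1 and CDK6 had 0.0027. These points are TPM as deposited and share libraries, depth, fraction and the protein-coding part of each library's TPM, and the correlations are descriptions. Among 6400 genes that averaged at least 5 TPM, the ones most like CCNE1 were NABP1 (0.966), ITM2B (0.965) and PGC (0.936), and those most like CCNE2 were EPDR1 (0.934), HPX (0.930) and FAM111A (0.925). The ones most like CCND1 were DST (0.963), TERF2IP (0.962) and CMIP (0.952), and those most like CDC25A were LIG1 (0.942), STMN1 (0.921) and LMF2 (0.914).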

How the data were processed

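RNA was measured in 12 sorted and 3 bulk HepG2 libraries. The deposited files hold log2 values per gene, which were log2(TPM + 1), since back-transformed values summed to 1000000 in all 15. The design had assumed TPM, and the same tests were kept on log2(TPM + 1). Per the submitters' processing notes, cutadapt, Trimmomatic, HISAT2, BWA, SAMtools and the build hg38 were used, without versions or what each did. The program and annotation behind the gene values are not stated in the labels used here. Symbols were matched for 61481 of 78932 identifiers and positions come from RefSeq (GRCh38.p14). Whether a recovered unit is a read or a pair is not given either.

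The members and lists were chosen with earlier results of these data known. The test was limma 3.58.1 (R 4.3.3) with an intensity trend, on genes averaging at least 1 TPM, Benjamini-Hochberg adjustment over all of them at 0.05, and no replicate term. The 12 sorted libraries shared a fit, and sorted minus bulk used all 15 with TPM rescaled over 19179 protein-coding identifiers. A fold on the log2(TPM + 1) scale understates the change of low genes. Proportions were tested by exact permutation over libraries. Read counts were recovered from the steps of TPM for 50308 of the 50310 genes detected in 3 or more libraries, with 99.9% of lengths found from low values whole within 0.01 base, and entered only as an alternative, with limma's voom. No replicates agreed within sampling noise. The chi-square per degree of freedom was 43.2 to 79.8 between sorted replicates of a fraction and 2.98 to 6.53 between bulk replicates. Of the tests, only S against G1 was run on simulated data, and the others were not checked in this way. The simulated noise was drawn independently for each library, while libraries of 1 replicate number deviated together in these data. Named genes were the members, then in each list up to 3 called genes with the largest change and the 2 with the highest mean, and the genes most alike to 4 members by correlation. Genes that met the count of low S3 and S4 values were named after their values were seen. Alternatives changed the pseudocount, filter, scaling, trend, replicate term and libraries. The result of 1 gene of the lists is not reported here.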

Additional observations from a re-analysis of the deposited data

How the results depend on the processing

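No member was called among the fractions under any setting (lowest limma adjusted p = 0.305). Counts of calls over all genes were small and moved. For any difference (3 genes) the count was 0 with a mean TPM of at least 5, with protein-coding scaling and with recovered reads, and 0 to 2 leaving out 1 library. For S1 against G1 (2) it was 1 with no filter, 0 with a mean TPM of at least 5, protein-coding scaling or recovered reads, and 0 to 2 leaving out 1 library. For S against G1 (0, with 891 genes at an unadjusted p under 0.05) it was 4 with a pseudocount of 0.1, 3 with no filter, 2 with median-ratio scaling, 1 with no trend and 0 to 2 leaving out 1 library. For G2 against G1 (1) it was 0 with no filter, a mean TPM of at least 5, protein-coding scaling or recovered reads, and 0 to 2 leaving out 1 library. For the slope (0) it was 1 with a pseudocount of 0.1.

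With median-ratio scaling, protein-coding scaling and recovered reads, S1 minus G1 turned to 0.13, 0.084 and 0.15 for CDK2 and to 0.27, 0.24 and 0.31 for CDC25A, and S minus G1 turned to 0.078, 0.044 and 0.083 for CDK2. Sorted minus bulk turned for CDC25A to -0.29 with median-ratio scaling, -2.02 with all genes as deposited and -0.32 with recovered reads, and for CCNE2 to -0.89 as deposited. The proportion of CCND1 was -1.42 points with sorted replicate 2 alone and -2.85 to -2.37 leaving out 1 library, with the call lost without bulk replicate 2 (exact permutation test, adjusted p = 0.110). The cause was not tested.

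Leaving out 1 library gave these lowest and highest log2 values. For the slope they were -0.13 and 0.023 for CCND1, -0.14 and 0.074 for CCND3, -0.23 and 0.18 for CDC25A, -0.11 and 0.035 for CDK2, -0.041 and 0.18 for CDK4, and -0.016 and 0.15 for CDK6. For S1 minus G1 they were -0.63 and 0.088 for CCND3, -0.65 and 0.66 for CCNE1, -0.52 and 0.84 for CCNE2, -0.54 and 0.46 for CDC25A, and -0.39 and 0.027 for CDK2. For S minus G1 they were -1.05 and 0.26 for CCNE1, -1.11 and 0.25 for CCNE2, -0.41 and 0.55 for CDC25A, and -0.33 and 0.080 for CDK2. For G2 minus G1 they were -1.16 and 0.14 for CCNE1, -1.10 and 0.26 for CCNE2, -0.60 and 1.03 for CDC25A, -0.31 and 0.40 for CDK2, -0.55 and 0.086 for CDK4, and -0.44 and 0.11 for CDK6. The slopes stayed negative at -0.61 to -0.22 for CCNE1 and -0.51 to -0.24 for CCNE2.

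With the replicate number as a block, the counts were 3 for any difference, 4 for S1 against G1, 0 for S against G1, 1 for G2 against G1, 0 for the slope and 9336 for sorted against bulk, and the slope's adjusted p was 0.305 for CCNE1 and 0.432 for CCNE2. Genes at an unadjusted p under 0.05 were more numerous with the block, at 1202 (7.06%) against 470 for any difference and 1300 (7.64%) against 500 for the slope. For S1 against G1 they were 1692 (9.94%) against 582, and for S against G1 2132 (12.5%) against 891. Of the 8 members tested, those at that level were CCNE1 for any difference and CCNE1 and CCNE2 for the slope. CDK4 was at that level for S1 and for S against G1, and none of these had an adjusted p under 0.05. Libraries of 1 replicate number deviated together, with correlations of 0.308 to 0.379 over 15 pairs of fractions, but no label ties a number to a culture or day. With 2 libraries per fraction the precision was low, and CCND2 rested on 4 to 33 reads per sorted library.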
